A study of Mus musculus with 11 samples.

Results

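The planar cell polarity genes of neural tube closure described here were a set of 10 genes chosen by name: the membrane proteins Vangl1, Vangl2, Celsr1, Fzd3 and Fzd6, the cytoplasmic adaptors Dvl1, Dvl2 and Dvl3, the scaffold Scrib and the receptor-like protein Ptk7. They were matched by symbol to the Entrez gene identifiers of the count files, and each was found once among 27179 genes. All 10 passed the filter on low counts, with 105 to 5132 counts per library.

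Each library was made from polyadenylated RNA of 1 mouse embryo, 11 in all, at embryonic day 9.5, from the brain down to the level just behind the otic vesicle. All embryos were C57BL/6, came from crosses of single-mutant strains and carried 1 mutant allele of Bim, a pro-apoptotic protein encoded by Bcl2l11. There were 4 affected females that were p53-/- Bim+/-, 4 control males that were p53-/- Bim+/-, and 3 control females that were p53+/+ Bim+/-. What being affected meant is not stated in the labels, which give no litter either. Affected females differed from control females in p53 genotype as well as in being affected, and from control males in sex as well as in being affected, so these differences cannot be told apart. Control males differed from control females in both sex and p53 genotype.

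Planar cell polarity is the coordinated orientation of cells within the plane of an epithelium. Vangl proteins and Frizzled receptors sort to opposite faces of neighbouring cells, which Celsr cadherins join. Frizzled signals through Dishevelled (Dvl) to the actin cytoskeleton. In the neural plate this drives the convergence and extension movements that narrow and lengthen the tissue. Mice with mutations in Vangl2, Celsr1, Scrib or Ptk7, in both Fzd3 and Fzd6, or in both Dvl1 and Dvl2 are known for a failure of neural tube closure along most of the body axis.

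Of the 3 Dishevelled paralogues Dvl1 fell in affected females and the others were not called by edgeR's quasi-likelihood test, so their promoters are set side by side. Promoter windows of 300 bases, from 250 before to 50 after an annotated start, were found in RefSeq for 5 of the 10 genes (Vangl2, Dvl1, Dvl2, Dvl3 and Ptk7). The sequences are of GRCm38.p6 and all 3 genes lie on the plus strand. The Dvl1 window is chr4:155847152-155847451, and capitals mark a cAMP response element (TGACGTCA) that starts 3 bases after the annotated start. The Dvl2 window is chr11:70000342-70000641, and capitals mark 3 E-boxes (CACGTG) that start 123, 76 and 33 bases before the start. The Dvl3 window is chr16:20516736-20517035, placed on a start that lies inside the annotated gene, and capitals mark 4 GC boxes (GGGCGG, on either strand).
Dvl1: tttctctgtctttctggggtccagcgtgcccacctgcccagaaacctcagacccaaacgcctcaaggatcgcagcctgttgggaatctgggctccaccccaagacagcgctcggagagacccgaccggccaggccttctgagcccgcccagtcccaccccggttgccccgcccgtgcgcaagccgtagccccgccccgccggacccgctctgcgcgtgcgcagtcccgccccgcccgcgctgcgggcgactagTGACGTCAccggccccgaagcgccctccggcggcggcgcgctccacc
Dvl2: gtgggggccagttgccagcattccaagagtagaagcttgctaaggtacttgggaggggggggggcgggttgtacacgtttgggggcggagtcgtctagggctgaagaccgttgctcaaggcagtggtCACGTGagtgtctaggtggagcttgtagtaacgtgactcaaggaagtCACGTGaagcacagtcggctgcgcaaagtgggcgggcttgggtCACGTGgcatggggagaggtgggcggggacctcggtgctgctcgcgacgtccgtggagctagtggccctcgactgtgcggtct
Dvl3: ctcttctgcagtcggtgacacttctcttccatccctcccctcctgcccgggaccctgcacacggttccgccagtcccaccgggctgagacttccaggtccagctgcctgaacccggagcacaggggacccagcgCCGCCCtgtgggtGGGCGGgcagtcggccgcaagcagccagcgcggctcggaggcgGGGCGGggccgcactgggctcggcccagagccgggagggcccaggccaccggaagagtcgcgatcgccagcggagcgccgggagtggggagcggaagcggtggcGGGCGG
The Dvl1 window also held 5 GC boxes and the Dvl2 window 4. GC content was 72.3% in the Dvl1 window, 62.0% in the Dvl2 window and 74.0% in the Dvl3 window. Of 32851 promoter windows of this length, 7.15% held an E-box, 0.088% held 3 or more, and 1.79% held the cAMP response element. A GC box was in 35.7% of them, and 3 or more were in 10.7%. The p53 half-site, searched on both strands like the other motifs, had no match in the windows of the 5 genes and a match in 8.36% of all windows. No match overlapped a match of another motif. A match describes these letters in this window and is not evidence of binding.

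Dvl1 was the member with the largest fall. Its protein, like the other Dishevelled proteins, relays the signal from Frizzled receptors at the membrane. The gene lies on chromosome 4 (155847402 to 155859303, plus strand, GRCm38.p6), and the counts cover 3348 bases. Normalised CPM (counts scaled to the TMM-adjusted size of each library) were 24.3, 25.5, 24.0 and 24.1 in affected females 1 to 4, against 40.2, 44.1, 38.6 and 28.4 in control males 1 to 4 and 42.9, 40.9 and 39.1 in control females 1 to 3. The 4 affected females lay close together and below every control embryo, and control male 4 was the lowest of the controls. Dvl1 averaged 24.5 ± 0.689 CPM in affected females (SD, n = 4) and 41.0 ± 1.88 CPM in control females (SD, n = 3), a 1.67-fold lower level (log2 fold change -0.74, SE 0.12, adjusted p = 0.0026, edgeR's quasi-likelihood test, with the Benjamini-Hochberg adjustment made over 14542 genes). Control males averaged 37.8 ± 6.74 CPM (SD, n = 4), and affected females were 1.54-fold lower than them (log2 fold change -0.63, SE 0.12, edgeR adjusted p = 0.00839). These comparisons share the affected females and are not independent of each other. Between control males and control females the log2 fold change was -0.12 (SE 0.12, edgeR adjusted p = 0.897). Both calls held under all 21 alternative settings, which included leaving out each library (adjusted p = 7.62e-06 to 0.0135 over control females and 2.23e-05 to 0.0432 over control males). Dvl1 overlaps Tas1r3, a taste receptor gene on the opposite strand. Tas1r3 had at most 1.18 CPM in any library. Whether the counting used strand is not stated in the labels or the file headers.

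Dvl2 and Dvl3 did not pass edgeR's test in any comparison. Dvl2, on chromosome 11 (70000592 to 70010109, plus strand), lies 0.409 Mb from Trp53 and averaged 26.0 ± 2.01 CPM in affected females, against 22.9 ± 3.21 in control males and 23.7 ± 4.03 in control females. Its log2 fold change was 0.14 (SE 0.13) against control females and 0.18 (SE 0.12) against control males, opposite in sign to Dvl1. By limma voom Dvl2 was called over control females (log2 fold change 0.26, adjusted p = 0.0437; 0.0437 to 0.799 over all settings). Dvl3, on chromosome 16 (20516949 to 20534013, plus strand), had 42.6, 43.9, 41.5 and 44.5 CPM in affected females 1 to 4, against 45.8, 49.5, 42.4 and 47.1 CPM in control males 1 to 4 and 47.0, 47.7 and 47.9 CPM in control females 1 to 3. The affected females all lay below the control females, but the difference was small (log2 fold change -0.14, SE 0.08, edgeR adjusted p = 0.196). Dvl3 overlaps Gm16618 on the opposite strand, which had at most 2.33 CPM.

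**Figure D1:**
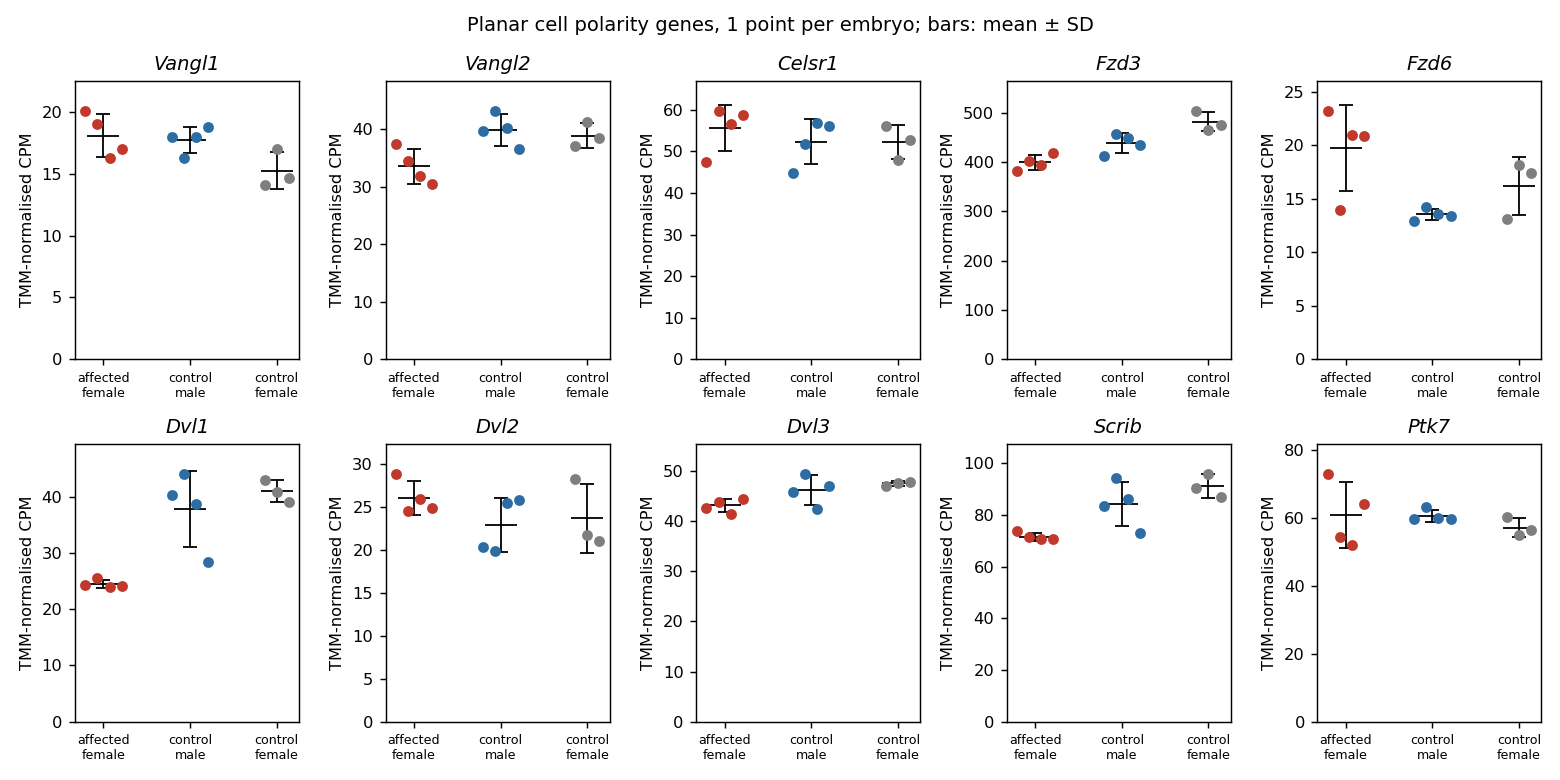
Each panel plots TMM-normalised CPM of 1 gene, with 1 point per embryo and bars for the mean ± SD of 4 affected females, 4 control males and 3 control females. Dvl1 shows 4 affected females between 24.0 and 25.5 CPM, below all 7 controls, and control male 4 at 28.4 CPM below the other controls.

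Expressed per kilobase of counted length, which allows levels of different genes to be set side by side, the order of the Dishevelled genes differed between the groups. In affected females Dvl1 lay at 7.16 to 7.61 CPM per kb and Dvl2 at 8.33 to 9.85 CPM per kb, so that Dvl1 was the lowest of the 3 genes without overlap. In control males Dvl1 lay at 8.47 to 13.2 and Dvl2 at 6.76 to 8.79 CPM per kb, with overlap. In control females Dvl1, at 11.7 to 12.8 CPM per kb, lay above Dvl2, at 7.14 to 9.64 CPM per kb. Dvl3 was the highest of the 3 in each group. As a share of the summed Dishevelled level per kb, Dvl1 made up 23.0%, 24.7%, 23.8% and 23.4% in affected females 1 to 4, against 34.9%, 35.9%, 33.3% and 25.5% in control males 1 to 4 and 33.4%, 34.2% and 33.3% in control females 1 to 3. The share was lower in every affected female than in any control, with control male 4 nearest to them. Dvl2 made up 27.1% to 31.2% in affected females, 18.4% to 26.5% in control males and 20.4% to 25.1% in control females. This share was higher in the affected females without overlap, but the level of Dvl2 per kb overlapped both control groups. A share also rises where the level of another gene in the sum falls. The summed level of the 3 genes was 30.8 ± 0.614 CPM per kb in affected females, 34.7 ± 1.46 in control males and 36.4 ± 1.74 in control females (SD, n = 4, 4 and 3). The shares are descriptions and were not tested.

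**Figure D2:**
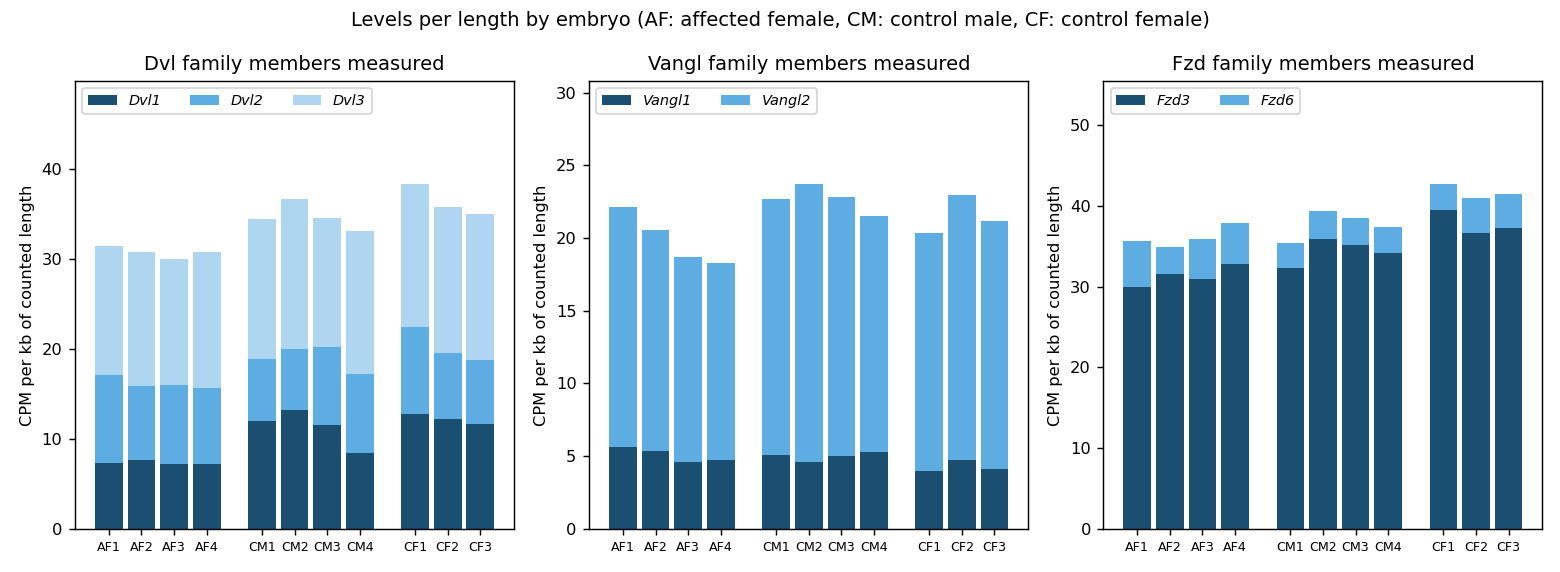
Stacked bars give the level per kb of counted length of the measured Dishevelled, Vangl and Frizzled genes in each embryo (AF, affected female; CM, control male; CF, control female). The Dvl1 segment is shortest in the 4 affected females, at 7.16 to 7.61 CPM per kb, and Fzd3 makes up most of the Frizzled pair in every embryo.

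Scrib, which encodes a scaffold of the basolateral membrane that binds Vangl2, was lower in affected than in control females. It lies on chromosome 15 (76047162 to 76069784, minus strand) and overlaps Mir6952 on the same strand. Its CPM were 73.7, 71.4, 70.6 and 70.7 in affected females 1 to 4, against 83.6, 94.2, 86.2 and 73.2 in control males 1 to 4 and 90.6, 96.1 and 87.2 in control females 1 to 3. The affected females lay below every control female, and overlapped the control males through control male 4 alone. Scrib averaged 71.6 ± 1.44 CPM in affected females and 91.3 ± 4.49 CPM in control females, a 1.28-fold lower level (log2 fold change -0.35, SE 0.09, edgeR adjusted p = 0.0115). Against control males, at 84.3 ± 8.68 CPM, the log2 fold change of -0.23 (SE 0.08) did not pass the test (edgeR adjusted p = 0.0529), close to the threshold. It passed by DESeq2 (adjusted p = 0.0475) and limma voom (0.00298), and in edgeR at a mean of at least 5 CPM (0.0392), with length and GC trends removed (0.0276), without control female 1 (0.0489), without control male 4 (0.00688) and without both (0.00518), within 0.00298 to 0.133 over all settings. The call against control females was lost without control female 2 (log2 fold change -0.31, edgeR adjusted p = 0.0569; 0.00023 to 0.0569 over all settings).

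Ptk7, a receptor-like protein with an inactive kinase domain, showed no difference that passed edgeR's test. It lies on chromosome 17 (46564451 to 46630049, minus strand). Its CPM were 73.2, 54.6, 52.0 and 64.3 in affected females 1 to 4, against 59.7, 63.2, 60.2 and 59.7 in control males 1 to 4 and 60.3, 55.0 and 56.5 in control females 1 to 3. The affected females spread to both sides of the controls, with affected female 1 the highest of all 11 embryos and affected female 3 the lowest. Its log2 fold change was 0.09 (SE 0.11) against control females and 0.01 (SE 0.10) against control males.

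The Frizzled receptors Fzd3 and Fzd6 bind Wnt ligands and recruit Dishevelled, and each was called in 1 comparison by edgeR. Fzd3, on chromosome 14 (65192441 to 65262463, minus strand), had 382, 402, 394 and 419 CPM in affected females 1 to 4, against 412, 457, 449 and 435 CPM in control males 1 to 4 and 504, 466 and 476 CPM in control females 1 to 3. Fzd3 overlaps Gm9086 on the opposite strand and Gm52141, whose strand was not found. The affected females lay below every control female, and so did the control males. Affected females and control males overlapped, with control male 1 below affected female 4. Fzd3 averaged 399 ± 15.4 CPM in affected females and 482 ± 19.6 CPM in control females, a 1.21-fold lower level (log2 fold change -0.27, SE 0.08, edgeR adjusted p = 0.0277). Against control males, at 438 ± 19.8 CPM, it was -0.13 (SE 0.08, edgeR adjusted p = 0.22), and control males over control females gave -0.14 (SE 0.08, edgeR adjusted p = 0.84). It was called over control males with length and GC trends removed (log2 fold change -0.25, edgeR adjusted p = 0.0245) and by limma voom (-0.15, adjusted p = 0.0282), within 0.0245 to 0.375 over all settings. The call against control females lay close to the threshold. It was lost without affected female 1 (adjusted p = 0.0651), affected female 3 (0.0723), control female 1 (0.0579), control female 2 (0.0635) or control female 3 (0.0792), and without the filter on low counts (0.061), all by edgeR, with a range over all settings of 0.00164 to 0.0792.

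Fzd6 lies on chromosome 15 (39006149 to 39038192, plus strand) and encodes a receptor that shares functions with Fzd3 in the neural plate. Fzd6 overlaps Gm26704 on the opposite strand. Its CPM were 23.2, 13.9, 20.9 and 20.8 in affected females 1 to 4, against 12.9, 14.2, 13.6 and 13.4 in control males 1 to 4 and 13.1, 18.1 and 17.4 in control females 1 to 3. Affected females 1, 3 and 4 were the 3 highest embryos, whereas affected female 2 lay among the control males. Fzd6 averaged 19.7 ± 4.05 CPM in affected females and 13.5 ± 0.533 CPM in control males, a 1.46-fold rise (log2 fold change 0.55, SE 0.15, edgeR adjusted p = 0.0238). Against control females, at 16.2 ± 2.73 CPM, the log2 fold change of 0.28 (SE 0.16) did not pass the test (edgeR adjusted p = 0.204), and it passed without affected female 2 (0.41, edgeR adjusted p = 0.0441; 0.0441 to 0.502 over all settings). The call against control males was lost without affected female 1 (adjusted p = 0.0641), affected female 3 (0.0788), affected female 4 (0.0617), control male 1 (0.0768) or control male 3 (0.054), all by edgeR, with a range over all settings of 0.00182 to 0.0788. Of the summed level of Fzd3 and Fzd6 per kb, Fzd6 made up 15.8%, 9.6%, 14.0% and 13.3% in affected females 1 to 4, against 8.54% to 8.79% in control males and 7.4%, 10.7% and 10.1% in control females 1 to 3.

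The Vangl genes, whose proteins span the membrane several times and mark the face opposite to Frizzled, did not pass edgeR's test in any comparison. Vangl2, on chromosome 1 (172000960 to 172027318, minus strand), had 37.4, 34.4, 31.8 and 30.5 CPM in affected females 1 to 4, against 39.7, 43.2, 40.2 and 36.5 CPM in control males 1 to 4 and 37.0, 41.2 and 38.4 CPM in control females 1 to 3. Affected females 2, 3 and 4 lay below all 7 controls and affected female 1 lay among them. The log2 fold change of Vangl2 was -0.21 (SE 0.10, edgeR adjusted p = 0.107) against control females and -0.25 (SE 0.09, edgeR adjusted p = 0.0582) against control males. By limma voom Vangl2 was called over control females (-0.26, adjusted p = 0.0102; 0.0102 to 0.304 over all settings) and over control males (-0.27, adjusted p = 0.00613). Over control males it also passed in edgeR at a mean of at least 5 CPM (adjusted p = 0.0448), without affected female 1 (0.0462) and without control male 4 (0.0235), within 0.00613 to 0.162 over all settings. Vangl1, on chromosome 3 (102153583 to 102204744, minus strand), averaged 18.1 ± 1.78 CPM in affected females, against 17.8 ± 1.03 in control males and 15.3 ± 1.51 in control females (log2 fold change 0.24, SE 0.12, edgeR adjusted p = 0.137 for affected against control females). Vangl1 overlaps Gm16160 on the opposite strand. Per kb, Vangl2 made up 73.9% to 75.4% of the summed Vangl level in affected females, 75.4% to 80.6% in control males and 79.3% to 80.5% in control females. In this share affected and control females did not overlap, whereas the levels of Vangl1 and of Vangl2 did. Between these groups the CPM ranges of 40.2% of all genes lay apart. The shares were not tested.

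Celsr1 encodes a large cadherin that joins neighbouring cells and is the longest locus of the 10 (chromosome 15, 85898758 to 86034223, minus strand). It averaged 55.7 ± 5.63 CPM in affected females, against 52.4 ± 5.52 in control males and 52.3 ± 4.17 in control females. Its log2 fold change was 0.09 in both comparisons of affected females (SE 0.11 against control females and 0.10 against control males), and the ranges of the groups overlapped. Celsr2, its paralogue, fell in affected females and is given with the other genes of the pathway. Of the summed level of Celsr1, Celsr2 and Celsr3 per kb, Celsr1 made up 35.5% to 45.6% in affected females, 26.7% to 40.4% in control males and 26.6% to 35.8% in control females.

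Counted over the whole set, affected against control females gave 3 edgeR calls among 10 members, none higher and 3 lower (Dvl1, Scrib and Fzd3). Over all 14542 genes tested, 28.0% were called in this comparison, 13.0% higher and 15.0% lower. The ranges of both groups lay apart for 4 members (these and Dvl3) and for 40.2% of all genes. Affected females against control males gave 2 edgeR calls, Fzd6 higher and Dvl1 lower, against 20.2% of all genes called, 9.51% higher and 10.7% lower. Ranges lay apart for 1 member, Dvl1, and for 19.5% of all genes. Control males against control females gave no call by edgeR's quasi-likelihood test, DESeq2 or limma voom, and no member had an unadjusted p under 0.05 by edgeR. In that comparison 0.144% of all genes were called, and ranges lay apart for 1 member, Fzd3, and for 5.54% of all genes. The members were called about as often as all genes in both comparisons of affected females. The median log2 fold change of the members was -0.03 against control females and -0.05 against control males, beside 0.00 and -0.02 over all genes. In bulk tissue, fewer cells of a type and less RNA per cell cannot be told apart.

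**Figure D3:**
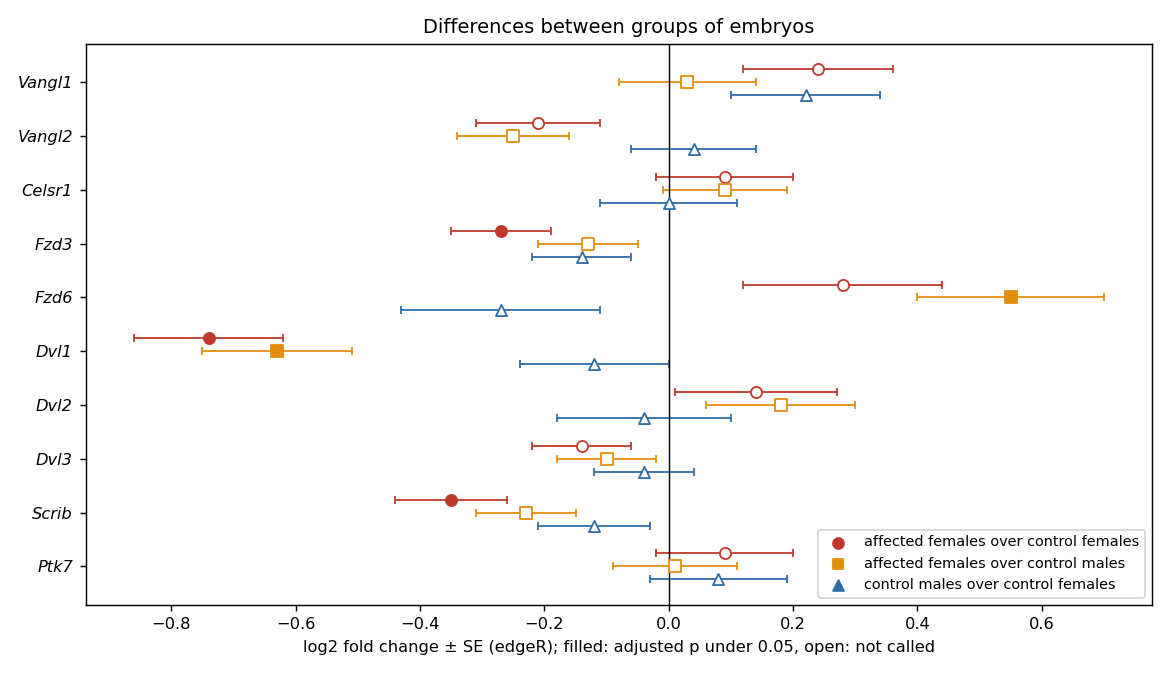
Points give the log2 fold change from edgeR with its SE for each gene in the 3 comparisons, filled where the adjusted p was under 0.05. Dvl1 lies farthest from 0, at -0.74 over control females and -0.63 over control males, and no comparison of control males with control females is filled.

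Over all 11 embryos Fzd3 was highest, at 34.2 ± 2.98 CPM per kb (SD), and its range (30.0 to 39.5) lay apart from that of the next gene. Vangl2 (16.5 ± 1.72), Dvl3 (15.4 ± 0.894), Scrib (14.7 ± 1.79) and Ptk7 (14.1 ± 1.36) followed with ranges that overlapped from neighbour to neighbour, then Dvl1 (10.1 ± 2.52) and Dvl2 (8.26 ± 1.06), whose ranges also overlapped. Celsr1 (4.85 ± 0.452), Vangl1 (4.83 ± 0.511) and Fzd6 (3.98 ± 0.91) formed the lower end, below the range of Dvl2 and overlapping each other. The length is the counted length in the deposited files, which does not take into account which transcripts were used. By the mean of each group Fzd3 led, Vangl2 followed and Fzd6 came last. The range of Vangl2 overlapped that of the next gene in every group, and that of Fzd6 overlapped its neighbour in affected and in control females.

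Markers of several cell types differed between the same groups as the members, and their part in the results was not tested. Of all genes, edgeR called 13.0% higher and 15.0% lower over control females, and 9.51% higher and 10.7% lower over control males. Of 12 early neuron markers, 10 fell in affected against control females and 8 against control males, and none rose. Their summed level was 167 to 203 CPM in affected females, against 256 to 427 in control males and 194 to 424 in control females. Control female 1, at 194 CPM, lay within the range of the affected females. It had 42.9 CPM of Dvl1, 90.6 CPM of Scrib and 504 CPM of Fzd3, all above every affected female. Control females 2 and 3, at 355 and 424 CPM of neuron markers, had 40.9 and 39.1 CPM of Dvl1. Control male 2 had the highest sum of neuron markers of all embryos, at 427 CPM, and the highest Dvl1, at 44.1 CPM. Its Scrib (94.2 CPM) and Fzd3 (457 CPM) were the highest of the control males. These are single embryos, and a relation between markers and members was not tested. Control male 4 had the lowest Dvl1 and Scrib of the controls, and 265 CPM of neuron markers, close to control males 1 and 3. It had the highest sums of the control males in the progenitor (1690.4 CPM), surface ectoderm (279 CPM) and neural crest (334 CPM) lists. Over all genes control male 4 and control female 1 stood apart within their groups, with a chi-square per degree of freedom of 14.3 to 31.6 between control male 4 and the other control males (6.77 to 11.6 among those) and of 18.1 and 21.3 between control female 1 and the other control females (2.73 between those). Of 11 surface ectoderm markers, 10 rose in affected against control females and 8 against control males, and none fell. They summed to 340.0 to 389.6 CPM in affected females, against 199.5 to 279 in control males and 178 to 318 in control females. Affected female 2, at 340.0 CPM, lay above every control in these markers and had 13.9 CPM of Fzd6, within the range of the control males. The other affected females, at 354 to 389.6 CPM in these markers, had 20.8 to 23.2 CPM of Fzd6. Of 10 neural progenitor markers 4 rose against control females and 1 against control males, with sums of 1711 to 1968 CPM in affected females, against 1296 to 1690.4 in control males and 1297 to 1403 in control females. Of 9 neural crest markers 6 rose against control females and 2 against control males, with sums of 349 to 423 CPM in affected females, against 276 to 334 in control males and 246 to 266 in control females. Of 8 head mesenchyme markers 1 rose in each of these comparisons, with sums of 228 to 285 CPM in affected females, against 206 to 253 in control males and 192 to 237 in control females. Of 9 blood and endothelium markers 1 fell against control females and none against control males, with sums of 1203 to 2315 CPM in affected females, against 2136 to 3534 in control males and 686 to 4241 in control females. Single calls, as in the head mesenchyme and blood lists and for progenitors over control males, were near the shares of all genes. No marker of the 6 lists was at 0 in every library, and between control males and control females 0 of 59 were called by edgeR (3 at an unadjusted p under 0.05), 0 by DESeq2 and 14 by limma voom.

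**Figure D4:**
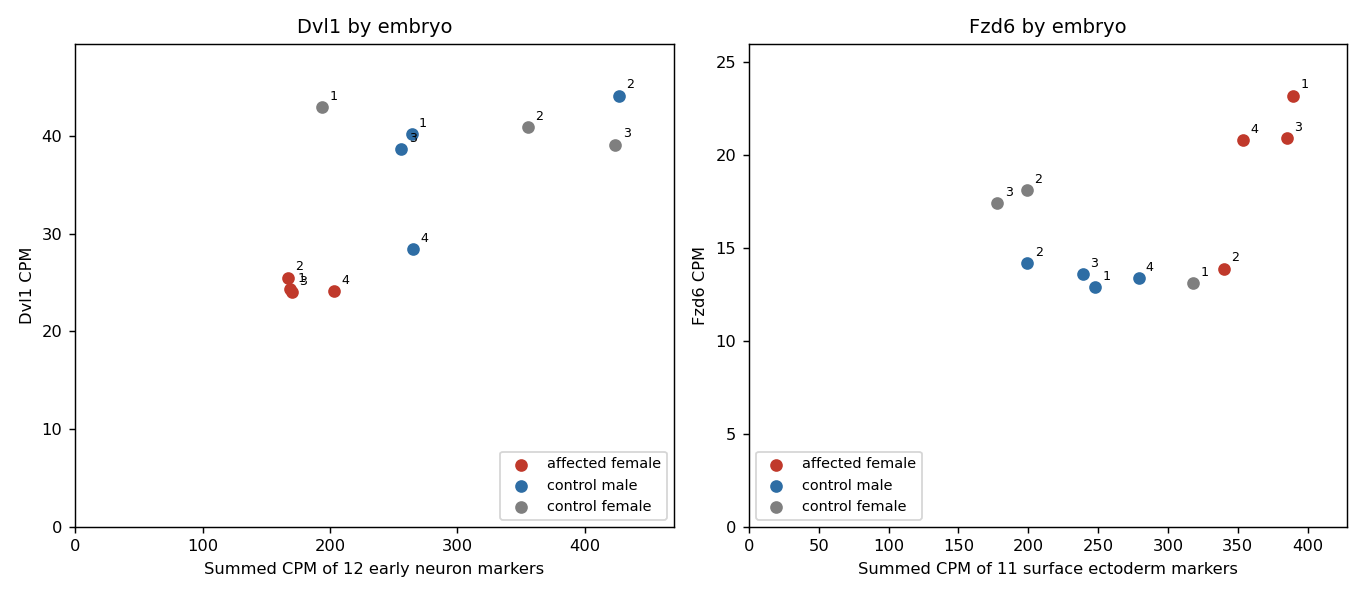
Left, CPM of Dvl1 against the summed CPM of 12 early neuron markers; right, CPM of Fzd6 against the summed CPM of 11 surface ectoderm markers, with 1 numbered point per embryo. Control female 1 has neuron markers at 194 CPM and Dvl1 at 42.9 CPM. Control male 2 is the highest in both, with neuron markers at 427 CPM and Dvl1 at 44.1 CPM. Affected female 2 has ectoderm markers at 340.0 CPM and Fzd6 at 13.9 CPM. These are single embryos, and a relation was not tested.

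The pathway beyond the 10 members was described by 6 lists of 38 genes, of which 36 were tested. Wnt11, at no more than 0.249 CPM, did not pass the filter and Dchs2 was not matched. In affected against control females 4 rose and 4 fell by edgeR, 22.2% of those tested beside 28.0% of all genes (median log2 fold change 0.15, against 0.00 over all genes). Against control males 3 rose and 2 fell, 13.9% beside 20.2% of all genes (median 0.09, against -0.02). Limma voom called 18 over control females and 15 over control males. Between control males and control females, where the median was 0.01, edgeR called 0 (1 at an unadjusted p under 0.05), DESeq2 0 and limma voom 4. Among 12 tested Wnt ligands, receptors and cofactors of the polarity branch, 4 rose against control females and 1 fell. Fzd7, a Frizzled receptor, had 231, 197, 191 and 189 CPM in affected females 1 to 4, against 163, 170.0, 173 and 165 CPM in control males 1 to 4 and 136, 147 and 158 CPM in control females 1 to 3. It was higher in every affected female than in any control (log2 fold change 0.46, SE 0.09, edgeR adjusted p = 0.00424 over control females, and 0.27, SE 0.08, edgeR adjusted p = 0.0341 over control males). Ror2, a tyrosine kinase receptor for Wnt5a, had 25.3, 23.4, 22.3 and 22.2 CPM in affected females 1 to 4, against 18.7, 17.8, 18.7 and 19.0 CPM in control males 1 to 4 and 18.3, 18.1 and 16.3 CPM in control females 1 to 3. It also rose without overlap in both comparisons (0.41, SE 0.10, edgeR adjusted p = 0.0126 over control females, and 0.33, SE 0.09, edgeR adjusted p = 0.0278 over control males). Against control females Ryk, a Wnt receptor (0.25, SE 0.09, edgeR adjusted p = 0.0476), and Ror1, named here after its values were seen (0.40, SE 0.13, edgeR adjusted p = 0.0289), rose as well.

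Cthrc1, a secreted protein that favours binding of Wnt to the Frizzled and Ror2 complex, was the member of this list that fell. It had 17.7, 17.8, 15.3 and 13.7 CPM in affected females 1 to 4, against 25.7, 24.9, 19.8 and 17.9 CPM in control males 1 to 4 and 22.9, 24.3 and 25.7 CPM in control females 1 to 3. All affected females lay below all controls, with control male 4 at their edge (log2 fold change -0.59, SE 0.14, edgeR adjusted p = 0.00959 over control females, and -0.45, SE 0.13, edgeR adjusted p = 0.029 over control males). Celsr2, a cadherin related to Celsr1, was the 1 edgeR call among 6 other core polarity genes, a fall in both comparisons. It had 74.8, 59.8, 63.6 and 72.5 CPM in affected females 1 to 4, against 91.8, 119.5, 87.0 and 72.7 CPM in control males 1 to 4 and 88.5, 113 and 111 CPM in control females 1 to 3. The affected females lay below every control female and overlapped control male 4 alone (log2 fold change -0.62, SE 0.14, edgeR adjusted p = 0.00778 over control females, and -0.45, SE 0.13, edgeR adjusted p = 0.0288 over control males). Celsr3 had a log2 fold change of -0.64 over control females (SE 0.28, edgeR adjusted p = 0.096), with ranges that overlapped. Limma voom called it there (adjusted p = 0.00133). So did edgeR with only the groups compared (0.0302), without control female 1 (0.0293), without control male 2 (0.0341), and without control female 1 and control male 4 (0.00641). Over control males the log2 fold change of Celsr3 was -0.44 (SE 0.26, edgeR adjusted p = 0.237).

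Of 4 effectors linked to cilia, Intu fell against control females (-0.31, SE 0.10, edgeR adjusted p = 0.0356). Against control males edgeR and DESeq2 called 0 (2 at an unadjusted p under 0.05 by edgeR), limma voom called 2, and edgeR called 1 without control male 4. Fat4, a very large cadherin, was the 1 of 3 Fat and Dachsous genes that fell against control females (-0.50, SE 0.17, edgeR adjusted p = 0.0445). Of 5 partners of Scrib, Dlg3 rose against control males (0.23, SE 0.07, edgeR adjusted p = 0.0305), which also differ in sex from the affected females. Over control females, of the same sex, Dlg3 was not called (0.16, SE 0.07, edgeR adjusted p = 0.122). With all 11 libraries none of 6 genes of trafficking and turnover was called by edgeR or DESeq2 in either comparison. In each, 1 had an unadjusted p under 0.05 by edgeR, and limma voom called 1 over control females and 2 over control males. The nearest was Sec24b, a coat protein that carries Vangl2 out of the endoplasmic reticulum (0.27, SE 0.10, edgeR adjusted p = 0.0593 over control females). In edgeR Sec24b was called higher over control females without control female 1 (adjusted p = 0.0184), control male 4 (0.034) or both (0.00456). Over control males it was called without the same libraries (0.0415, 0.0153 and 0.00468).

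The pathway calls differed in how many of the fits without 1 library kept them. Against control females Fzd7, Celsr2 and Cthrc1 kept their calls in edgeR without any 1 library. Ror2 lost its call without control female 3 (edgeR adjusted p = 0.0687). Ror1 lost it without affected female 1, 3 or 4 or control female 2 or 3 (edgeR adjusted p = 0.0511 to 0.11). Ryk lost its call without any 1 of 9 libraries, all but control males 2 and 4 (edgeR adjusted p = 0.0529 to 0.136). Intu lost it without affected female 1, 2 or 3 or any control female (0.0501 to 0.104). Fat4 lost it without affected female 2, 3 or 4, control male 3 or control female 2 or 3 (0.054 to 0.23). Against control males all 5 calls (Celsr2, Ror2, Fzd7, Cthrc1 and Dlg3) were lost without affected female 3 (0.07 to 0.0933), affected female 4 (0.0538 to 0.0864), control male 1 (0.0754 to 0.104) or control male 2 (0.0527 to 0.0844). There 4 of them, all but Cthrc1, were lost without affected female 2 (0.0512 to 0.0689), 3 without control male 3 (Fzd7, Ror2 and Dlg3, 0.0633 to 0.0742), and Fzd7 and Ror2 without affected female 1 (0.0985 and 0.0715). Over control males edgeR called 2940 of all genes with all libraries. Without affected female 3 or 4 or control male 1 or 2 it called 361, 1174, 658 and 1132. Over all single omissions the log2 fold change over control males was 0.22 to 0.24 for Dlg3, 0.29 to 0.35 for Ror2 and 0.20 to 0.30 for Fzd7. It was -0.56 to -0.31 for Celsr2 and -0.54 to -0.37 for Cthrc1. Other settings ended calls as well. With length and GC trends removed Fzd7, Cthrc1 and Dlg3 were not called over control males (edgeR adjusted p = 0.0561 to 0.174), and without a filter on low counts Dlg3 was not (0.0536). Ryk was not called over control females under RLE scaling, autosomal TMM, either other filter or removal of trends (0.0509 to 0.066). Calls were also gained. Over control males edgeR called Llgl1 higher without control male 4 (adjusted p = 0.0155). There it called Fzd1 lower without control female 1 (0.0444) and with length and GC trends removed (0.0349). Limma voom called both over control males (0.00251 for Llgl1 and 0.029 for Fzd1).

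**Figure D5:**
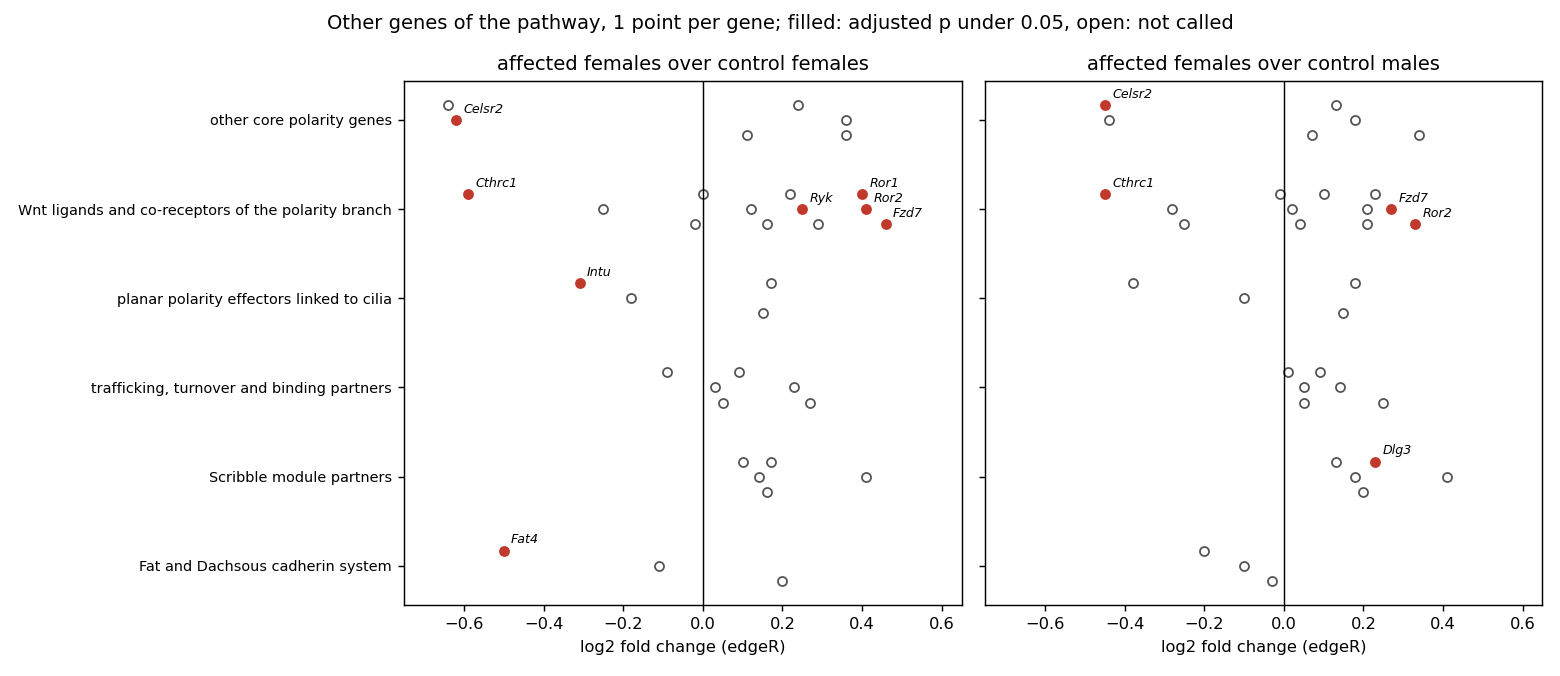
Each point is the log2 fold change of 1 gene of 6 pathway lists, for affected females over control females (left) and over control males (right), filled and named where the edgeR adjusted p was under 0.05. Fzd7 and Ror2 lie to the right and Celsr2 and Cthrc1 to the left in both panels.

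The genes whose log2 CPM followed that of a member most closely over the 11 libraries are given as a description, since the libraries share groups and the genes were picked for their likeness among 14542. For Dvl1 they were Fam193b (Pearson r = 0.989), BC024139 (0.985) and Gm4924 (0.983). For Scrib they were Slc25a27 (0.981), Ankrd16 (0.98) and Dmpk (0.98). For Fzd3 they were Chd3 (0.932), Wfdc1 (0.93) and Ccdc88a (0.926), and for Fzd6 Ace (0.931), Ofd1 (0.931) and Eif2ak2 (0.905). The closest gene to Vangl2 was Gm20083 (0.975), to Dvl2 Nab1 (0.947), to Dvl3 Dnah11 (0.942), to Vangl1 Pkdcc (0.927), to Celsr1 Dpyd (0.903) and to Ptk7 Foxa1 (0.867).

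The libraries held 8211942 to 11218682 counts. Trp53 was at 107 to 139 CPM in affected females, against 112 to 132 in control males and 105 to 125 in control females, so whole-gene counts cannot serve as a check of the p53 genotype. Xist, read from the inactive X chromosome, was at 1435 to 2167 CPM in affected females, against 8.72 to 13.2 in control males and 4391 to 5959 in control females. Ddx3y, on the Y chromosome, was at 0.0932 to 0.205 CPM in affected females, against 83.4 to 115 in control males and at most 0.212 in control females, which fits the labelled sexes. The neural markers Sox2 and Pax6 were at 82.9 CPM or more in every library. Within groups the libraries differed by more than sampling noise, so each was counted as 1 embryo.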

How the data were processed

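Per the labels' protocols, libraries were prepared with a TruSeq kit and sequenced on an Illumina HiSeq instrument. Raw counts were deposited by the authors for each Entrez gene beside its counted length, with 1 library per embryo, and were made with featureCounts on mm10 per the submitters' processing notes. The aligner, tool versions, strand and annotation are not stated in the labels or headers. A deposited table of the whole series with the same values was not used here.

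Counts were fitted with edgeR 4.0.16 in R 4.3.3: filterByExpr (14542 genes kept), TMM scaling, 1 quasi-likelihood fit of all 11 libraries by group, and Benjamini-Hochberg adjustment over all tested genes with a threshold of 0.05. A gene is called where its adjusted p is under 0.05. CPM used TMM-adjusted library sizes. Log2 CPM used a prior count of 2. The biological coefficient of variation was 11.9%. The procedure was tested on simulated data. Identifiers were matched to symbols in a RefSeq table of GRCm38.p6 (25293 with a symbol, 1886 without, 18 named by GENCODE only). Promoter windows are RefSeq's, and motifs were searched on both strands in Python 3.11.15 with pandas 2.3.3.

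The members and gene lists were chosen with earlier results of these data known. A further pathway list is not reported here. Named genes are the 10 members, up to 3 genes of each pathway list with the smallest adjusted p in each comparison, and for each member the 3 tested genes with the highest Pearson correlation over the 11 libraries; not all are given. Alternative settings used RLE scaling, TMM factors of autosomal genes only, no filter, a mean of at least 5 CPM, DESeq2 1.42.0, limma 3.58.1 voom with sample weights, only the groups compared, the replicate number as a block, removal of length and GC trends, and each library left out. Omission of control female 1 with control male 4 was added after seeing the data. Embryos that share a replicate number were not taken as pairs. Replicates are separate embryos per the labels, and the tests set differences between groups against the spread between these embryos. No litter or batch is given, so embryos that share one could not be taken into account.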

Additional observations from a re-analysis of the deposited data

Results flagged for a closer look

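In a group of 4 embryos a value was looked at again where its gap to the nearest other embryo took up most of the group's range (Dixon's test at 95%). Chance alone does this in about 1 in 20 groups. Of 96 groups of 4 looked at, 3 met it, each in the CPM of a member or of a pathway gene. Ptk7 was at 63.2 CPM in control male 2, against 59.7 to 60.2 CPM in the other control males. Fzd1, a Frizzled receptor gene, was at 40.0 CPM in control male 2, against 31.2 to 32.4 CPM in the other control males. Fjx1, of the Fat and Dachsous list, was at 19.3 CPM in affected female 4, against 14.6 to 15.1 CPM in the other affected females.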

How the results depend on the processing

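Over 21 alternative settings, 567 of 630 values of the members kept their direction and call, 12 lost the call, 18 gained one and 33 changed sign, none of the last among called values. Dvl1 kept both calls throughout (log2 fold change -0.77 to -0.67 over control females and -0.74 to -0.55 over control males). Of 378 values of the named pathway genes 289 kept direction and call, 69 lost the call, 20 gained one and 0 changed sign, and of 756 counts per list 138 moved by over 1.5 times or to or away from 0. Members called over control males numbered 2 as reported, 4 at a mean of at least 5 CPM, 5 by limma voom, 4 with length and GC trends removed and 4 without control female 1 and control male 4 together. Over control females they numbered 3, and 5 by limma voom. Of all genes limma voom called 7639 over control females, 6397 over control males and 1569 between control males and control females, where DESeq2 called 43; without control female 1 and control male 4 there were 6014 over control males. Leaving out 1 library gave 1663 to 4957 calls over control females, 361 to 5140 over control males and 18 to 35 between the controls, with 1 to 4 members called over each control group and 0 between the controls. Over control females the count moved by over 1.5 times without affected female 3 (1967) or 4 (2605) or control female 2 (1924) or 3 (1663), and over control males without affected female 3 (361) or 4 (1174) or control male 1 (658), 2 (1132), 3 (1470) or 4 (5140). The cause was not tested.

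Between the controls means control males over control females. For Celsr1 there the log2 fold change was -0.0017 with RLE scaling, -0.01 with autosomal TMM, -0.0047 at a mean of at least 5 CPM, -0.0016 by DESeq2 and -0.03 with the replicate block. For Ptk7 over control males it was -0.01 at a mean of at least 5 CPM, -0.02 by limma voom, -0.0014 with the block and -0.03 with length and GC trends removed, and for Vangl1 -0.01 and -0.02 by the voom and trend settings. With trends removed Celsr1 over control males was -0.01 and Fzd3 between the controls 0.02. Between the controls Dvl2 was 0.17 by limma voom, and Dvl1 and Dvl2 were 0.04 each without control female 1 and control male 4. Leaving out 1 library gave ranges that cross 0 for Ptk7 (-0.01 to 0.15 over control females, -0.09 to 0.08 over control males), Vangl1 over control males (-0.03 to 0.07) and, between the controls, Celsr1 (-0.06 to 0.07), Dvl2 (-0.12 to 0.10), Vangl2 (-0.01 to 0.08) and Dvl1 (-0.20 to 0.0018).

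The replicate block gave 2875 calls over control females, 3418 over control males and 21 between the controls, with 3, 3 and 0 members (Scrib joined over control males). With it Ryk, Fat4 and Ror1 were not called over control females (edgeR adjusted p = 0.0894, 0.0789 and 0.0707). Embryos with the same number share only that number. Their deviations correlated at -0.136 to 0.178, and 2 of 20 comparisons were best with their own number. Counts as low as 105 per library limit the precision of Fzd6.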
